A study of Mus musculus with 12 samples.

Results

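The genes described here encode the nuclear subunits of the respiratory chain and the ATP synthase. They were taken by symbol, as every probe set with a single gene symbol that starts with Nduf, Sdha to Sdhd, Uqcr, Cyc1, Cox4 to Cox8 or Atp5. Cox7a1 and Cox8b, subunits typical of brown fat and muscle, were left out. This gave 99 probe sets of 72 genes, out of 12422 probe sets and 8251 named genes on the array, and the probe set with the highest mean log2 signal stood for each gene. By complex the members were 29 genes of complex I (NADH dehydrogenase), 4 of complex II (succinate dehydrogenase), 8 of complex III (cytochrome bc1), 13 of complex IV (cytochrome c oxidase) and 14 of complex V (ATP synthase). The other 4, Ndufaf1, Ndufaf4, Sdhaf1 and Sdhaf2, encode assembly factors that the symbol rule also takes in. Ndufab1, which is also the acyl carrier protein of mitochondria, and Cox7a2l, a factor of supercomplex assembly, were counted by symbol with complexes I and IV.

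Complexes I and II pass electrons from NADH and succinate to ubiquinone, complex III passes them on to cytochrome c, and complex IV hands them to oxygen. Complexes I, III and IV pump protons across the inner membrane, and complex V uses their return to make ATP. In brown fat the chain runs at high rate with the proton gradient released as heat, whereas white adipocytes hold few mitochondria in a thin rim of cytoplasm around the lipid droplet.

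The tissue came from male C57BL/6 mice, an inbred strain, aged 42 to 49 days, with fat from the flank (subcutaneous) and fat from around the epididymis (intraabdominal) of 10 animals pooled by depot. Collagenase at 1 mg/ml for 45 min released the cells, and the floating adipocytes went directly to RNA extraction. The pellet, the stromo-vascular fraction (SVF) of fat cell precursors, fibroblasts, vessel and immune cells, went through red cell lysis, was plated and gave RNA after 16 h of culture, so that fraction and culture cannot be told apart. Each of the 4 groups (subcutaneous adipocytes, intraabdominal adipocytes, subcutaneous SVF and intraabdominal SVF) had 3 arrays. No label says that the 3 came from separate pools, and the p-values then measure only the spread between these samples, which may be technical.

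The labelled fractions were checked against markers. All 16 adipocyte markers on the array were higher in adipocytes than in SVF in both depots, with summed signals of 994422 to 1166596 in the adipocyte arrays and 31998 to 59012 in the SVF arrays. Preadipocyte and fibroblast markers summed to 333045 to 477317 in SVF and to 54059 to 100016 in adipocytes, and no marker of either list was at 0 on any array. The ratio of 3' to 5' signal of actin, which rises as RNA breaks down, lay between 2.35 and 3.10 in subcutaneous adipocytes and between 1.71 and 2.24 in intraabdominal adipocytes. On the 6 SVF arrays it lay between 1.11 and 1.24. These are bulk samples, in which fewer cells of a type and less RNA per cell cannot be told apart.

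Promoter windows are given for 5 members because the results below turn on them: Uqcrc1, Uqcr11 and Cox5b were among the members with a marked adipocyte excess, Cox7b had the clearest depot difference, and Cox7a2l ran opposite to the rest. RefSeq windows (GRCm38.p6), 250 bases before to 50 after the start of transcription and written 5' to 3' on the strand of the gene, were found for 58 of the 72 members and for 63 windows in all. They were searched on both strands for letters recognised by regulators of mitochondrial genes: NRF1 (GCATGCGC), GABPA (CCGGAAGT), YY1 (AAGATGGCG) and ERR (TCAAGGTCA). None of these 4 strings contains another. Capitals mark matches, and where the NRF1 letters match on both strands the matches overlap and form 1 run of capitals. The Uqcrc1 window is chr9:108936398-108936697 on the plus strand, with the NRF1 letters on both strands from base 31 after the start. The Uqcr11 window is chr10:80406772-80407071 on the minus strand, with the GABPA letters from base -66 and the NRF1 letters from base -4. The windows of Cox5b (chr1:36691237-36691536, plus strand), Cox7b (chrX:106015450-106015749, plus strand) and Cox7a2l (chr17:83514284-83514583, minus strand) held none of the 4 strings.
Uqcrc1: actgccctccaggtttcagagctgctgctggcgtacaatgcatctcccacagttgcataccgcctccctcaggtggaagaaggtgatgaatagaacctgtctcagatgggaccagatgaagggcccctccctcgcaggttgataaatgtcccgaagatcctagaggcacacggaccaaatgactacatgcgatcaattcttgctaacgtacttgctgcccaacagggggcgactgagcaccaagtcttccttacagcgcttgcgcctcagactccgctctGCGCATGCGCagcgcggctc
Uqcr11: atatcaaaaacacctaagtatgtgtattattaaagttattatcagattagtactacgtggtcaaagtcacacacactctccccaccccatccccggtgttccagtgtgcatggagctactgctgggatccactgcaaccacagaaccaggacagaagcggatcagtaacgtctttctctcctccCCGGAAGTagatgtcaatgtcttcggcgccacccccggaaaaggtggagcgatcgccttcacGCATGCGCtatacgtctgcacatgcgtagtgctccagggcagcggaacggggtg
Cox5b: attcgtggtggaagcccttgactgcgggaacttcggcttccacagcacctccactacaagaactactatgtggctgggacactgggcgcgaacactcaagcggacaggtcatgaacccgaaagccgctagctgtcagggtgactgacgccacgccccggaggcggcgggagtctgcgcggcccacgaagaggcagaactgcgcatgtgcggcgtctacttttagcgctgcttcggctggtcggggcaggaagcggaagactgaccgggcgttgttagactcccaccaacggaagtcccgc
Cox7b: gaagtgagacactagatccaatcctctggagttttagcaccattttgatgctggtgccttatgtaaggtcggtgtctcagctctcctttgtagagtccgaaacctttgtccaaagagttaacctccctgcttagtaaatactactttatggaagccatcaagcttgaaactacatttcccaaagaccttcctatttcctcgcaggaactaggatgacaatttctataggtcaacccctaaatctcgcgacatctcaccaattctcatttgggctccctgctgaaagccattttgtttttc
Cox7a2l: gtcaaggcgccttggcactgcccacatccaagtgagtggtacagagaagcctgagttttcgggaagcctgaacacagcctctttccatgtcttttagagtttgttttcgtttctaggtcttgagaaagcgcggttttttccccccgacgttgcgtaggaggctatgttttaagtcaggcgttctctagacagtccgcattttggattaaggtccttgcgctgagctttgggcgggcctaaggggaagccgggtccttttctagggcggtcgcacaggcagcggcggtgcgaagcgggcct

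The NRF1 letters stood in 15.9% of the members' windows and in 2.71% of all 32851 windows of the same length. The 10 members that held them were Atp5g2, Atp5k, Atp5l, Cox6a1, Ndufa6, Ndufa8, Ndufaf4, Sdhb, Uqcr11 and Uqcrc1. The GABPA letters stood in 6.35% of the members' windows and in 3.89% of all (Cox8a, Ndufs3, Uqcr11 and Uqcrh). The YY1 letters stood in 7.94% and 1.40% (Atp5j, Atp5j2, Ndufa9, Ndufc1 and Ndufs4), and the ERR letters in 1.59% and 0.423% (Sdhd). In all 19 members held at least 1 of the 4 strings, and the share of all windows with any of them was not counted. Of the 58 members with a window 42 were called higher in adipocytes in both depots. Of these 42, 9 held the NRF1 letters, 3 the GABPA letters, 3 the YY1 letters and 1 the ERR letters. Among those without any of the 4 strings were Cox5b, Ndufb8, Ndufb6, Atp5e and Uqcr10. A match describes the letters of the window and is not a measured binding site.

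The first question was how the chain and the ATP synthase differed between fat cells and the other cells of the same depot. In subcutaneous fat 55 of the 68 members tested were higher in adipocytes and 1 was lower, against 23.5% higher and 29.4% lower among the 8695 probe sets tested. In intraabdominal fat 54 were higher and 2 lower, against 22.4% higher and 29.0% lower of all. A probe set was called when its limma p, adjusted by Benjamini-Hochberg over all 8695, was under 0.05. The median log2 difference of the members was 1.52 in subcutaneous fat (2.86-fold) and 1.27 in intraabdominal fat (2.42-fold), where the medians of all probe sets tested were -0.04 and -0.11. The 54 members called higher in intraabdominal fat were all called higher in subcutaneous fat too. Of all probe sets tested 17.2% were called higher in both depots. Adipocyte and SVF arrays did not overlap, with adipocytes above, in 58 members in subcutaneous fat (27.6% of all probe sets tested) and in 56 in intraabdominal fat (26.2%). They did not overlap with adipocytes below in 1 (32.3%) and 2 (33.8%). The actin ratio moved with this comparison. With it as a covariate 43 members were called higher in subcutaneous fat, against 5.76% of all probe sets, and 49 in intraabdominal fat, against 10.8%. The members' medians were then 2.13 and 1.72 (log2). Endothelial and erythroid markers also moved with the fraction. The 10 endothelial markers summed to 20320 to 36664 in adipocytes and 10382 to 17669 in SVF, with 9 of 10 called higher in adipocytes in each depot. The 3 erythroid markers summed to 18208 to 44870 and 561 to 1225, with 2 called higher in subcutaneous and 3 in intraabdominal fat. None of them was at 0 on any array, and their part in the result was not tested.

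**Figure D1:**
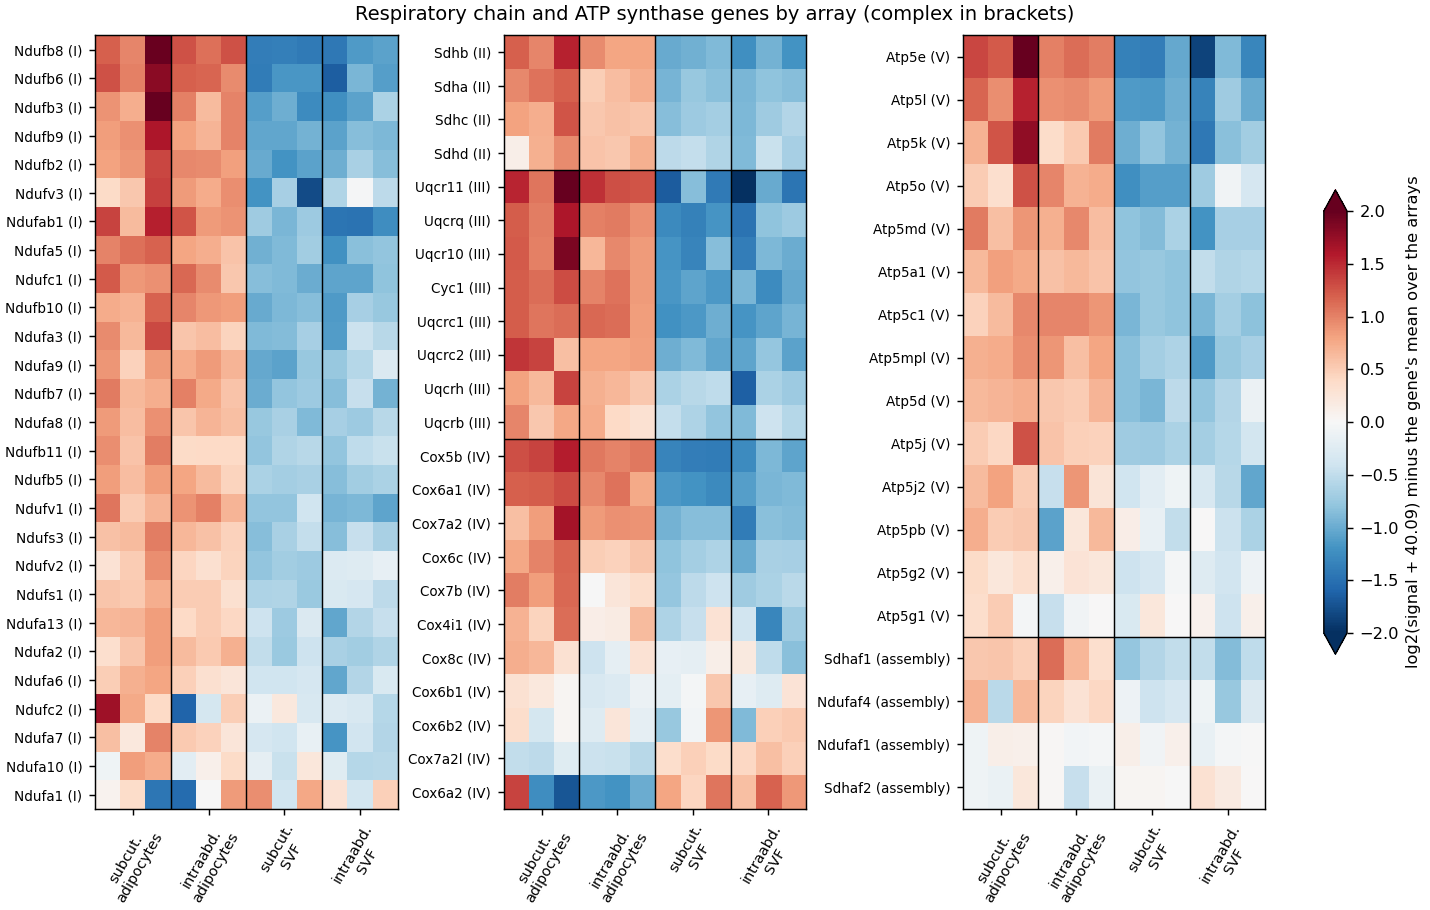
Each row is a member tested, with its complex in brackets, each column an array, and the colour is log2(signal + 40.09) minus the mean of that gene over the 12 arrays, with the scale ending at 2 on either side. Most rows are red in the 6 adipocyte arrays and blue in the 6 SVF arrays, and Cox7a2l and Cox6a2 run the other way.

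The complexes shared this direction but not its size. All 8 members of complex III were higher in adipocytes in both depots, with median log2 differences of 2.28 (4.87-fold) in subcutaneous and 1.96 (3.88-fold) in intraabdominal fat. All 4 of complex II were higher, with medians of 1.80 and 1.38. In complex I 24 of the 27 tested were higher in each depot, with medians of 1.56 and 1.27. In complex V 11 of 14 were higher in each depot, with median folds of 2.83 and 2.24. Complex IV had the lowest medians, 1.01 and 0.82, with 7 of 11 higher in subcutaneous fat and 6 of 11 in intraabdominal fat. With the lowest 50% of probe sets left out its medians were 1.58 and 1.11, beside 1.52 and 1.39 in complex V. It was then no longer the lowest in subcutaneous fat. With the mean over probe sets its medians were 0.62 and 0.52. The members of complex IV were also the most spread out, with an SD of the log2 differences of 1.32 and 1.30 against 0.32 to 0.69 in the other complexes. Of the assembly factors taken in by symbol only Sdhaf1 was called higher, in both depots, and their medians were 0.27 and 0.40. The differences between complexes were not tested.

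**Figure D2:**
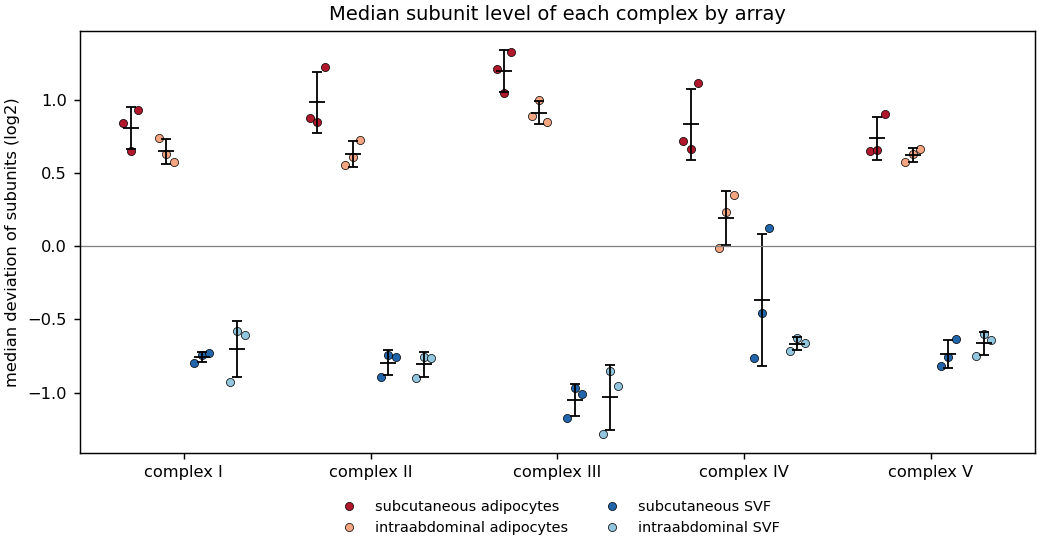
Each point is the median, over the tested subunits of a complex, of log2(signal + 40.09) minus the mean of the gene over the 12 arrays, for 1 array, and the bars give the mean and SD of the 3 arrays of a group. Adipocyte arrays lie above SVF arrays in complexes I, II, III and V, and in complex IV the lowest adipocyte array (-0.01) lies below the highest SVF array (0.12).

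All 8 complex III genes were called higher in both depots. Cyc1, the cytochrome c1 haem subunit that reduces cytochrome c, read 61414, 57373 and 65279 in subcutaneous adipocytes, 52791, 56117 and 48027 in intraabdominal adipocytes, 11830, 12736 and 11907 in subcutaneous SVF and 14017, 11043 and 13017 in intraabdominal SVF. Every adipocyte array lay far above every SVF array. The gene was 5.03-fold higher in subcutaneous adipocytes (log2 2.33, SE 0.12, adjusted p = 5.07e-10) and 4.12-fold higher in intraabdominal adipocytes (log2 2.04, SE 0.12, adjusted p = 1.78e-09). A dimmer Cyc1 probe set was 1.89-fold higher in subcutaneous fat (adjusted p = 0.00231), and in intraabdominal fat its difference of 0.12 (log2) was not called (adjusted p = 0.663). Uqcrc1, a core protein of the matrix arm, read 19505, 17686 and 18407 in subcutaneous and 18689, 18366 and 15108 in intraabdominal adipocytes. In SVF it read 3633, 3782 and 4291 (subcutaneous) and 3700, 4064 and 4433 (intraabdominal). Here too the fractions did not overlap, and the folds were 4.72 (adjusted p = 1.33e-09) and 4.24 (adjusted p = 2.60e-09).

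Uqcr11, a small accessory subunit, had the largest difference of any member in both depots. It read 11023, 8039 and 15340 in subcutaneous adipocytes and 10529, 9311 and 9085 in intraabdominal adipocytes. In SVF it read 1171, 2082 and 1401 (subcutaneous) and 792, 1866 and 1347 (intraabdominal). The lowest adipocyte array stood well above the highest SVF array, and the folds were 7.19 (adjusted p = 9.90e-07) and 7.43 (adjusted p = 7.94e-07). Uqcrq, which binds near cytochrome b, averaged 59295 ± 12720 and 47620 ± 1908 (SD, n = 3) in subcutaneous and intraabdominal adipocytes against 9995 ± 616 and 12280 ± 3202 in SVF, 5.83-fold and 3.97-fold higher. The other 4 members, Uqcr10, Uqcrc2, Uqcrb and Uqcrh, were 2.61-fold to 5.62-fold higher in subcutaneous and 2.16-fold to 3.79-fold higher in intraabdominal adipocytes. Uqcrb, which binds ubiquinone, had the smallest fold of the complex in both depots.

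All 4 subunits of complex II rose together. Sdha carries the flavin site at which succinate is oxidised, and it read 2907, 3205 and 3425 in subcutaneous and 2110, 2301 and 2482 in intraabdominal adipocytes, against 761, 857 and 815 in subcutaneous SVF and 767, 833 and 802 in intraabdominal SVF. Adipocytes were 3.78-fold (adjusted p = 4.13e-08) and 2.78-fold higher (adjusted p = 6.69e-07). Sdhb, the iron-sulphur subunit, was 4.54-fold and 3.89-fold higher (adjusted p = 6.95e-09 and 2.09e-08). Of the membrane anchors, Sdhc was higher by 1.68 and 1.29 (log2) and Sdhd by 1.13 and 1.28. All adipocyte arrays were above all SVF arrays of the same depot in each of the 4 genes. Sdhaf1, which helps to insert the iron-sulphur clusters, was 2.22-fold and 2.51-fold higher. Sdhaf2, which attaches the flavin, differed by -0.02 and -0.35 (log2), and neither was called.

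In complex I all 4 core and flavoprotein subunits of the list (Ndufv1, Ndufv2, Ndufs1 and Ndufs3) were called higher in both depots. Ndufv1, which binds NADH, averaged 22531 ± 4666 in subcutaneous and 24093 ± 2703 in intraabdominal adipocytes against 8383 ± 1372 and 6738 ± 404 in SVF (SD, n = 3), 2.67-fold and 3.55-fold higher. Ndufs1, the largest iron-sulphur subunit, was 2.38-fold and 1.79-fold higher, and Ndufs3, a core subunit of the matrix arm, was 2.66-fold and 2.35-fold higher. Ndufv2, the partner of Ndufv1 with an iron-sulphur cluster, was 2.49-fold and 1.55-fold higher. Its dimmer probe set was 1.71-fold higher in subcutaneous fat (adjusted p = 0.00446). In intraabdominal fat that probe set was not called (log2 0.36, adjusted p = 0.145). Among the accessory subunits Ndufb8, of the membrane arm, stood highest. It read 21184, 18210 and 36270 in subcutaneous and 22468, 19958 and 22381 in intraabdominal adipocytes, and 3497, 3548 and 3421 in subcutaneous and 3402, 4186 and 4397 in intraabdominal SVF. The fractions were far apart, at 6.84-fold (adjusted p = 2.19e-08) and 5.39-fold (adjusted p = 9.01e-08), and the third subcutaneous array was the highest of all. Ndufb2 was 4.29-fold and 3.33-fold higher and Ndufa5 was 3.83-fold and 3.12-fold higher. Ndufa1, Ndufa10 and Ndufc2 were called in neither depot.

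Complex V rose in its catalytic head and in its membrane part. Atp5a1, the alpha subunit of the head, read 40276, 45529 and 43446 in subcutaneous and 38647, 40427 and 38193 in intraabdominal adipocytes, against 14823, 15287 and 14687 and then 18406, 16918 and 17409 in SVF of the same depots. The tight arrays gave 2.88-fold (adjusted p = 7.27e-09) and 2.22-fold (adjusted p = 1.47e-07). Atp5c1, the rotating gamma subunit, was 2.84-fold and 3.37-fold higher, and Atp5l, the g subunit of the membrane part, was 4.90-fold and 3.78-fold higher. Atp5e, the epsilon subunit of the central stalk, had the largest fold of the complex, 6.96 and 5.26. The genes of the membrane c ring that were on the array had smaller differences: Atp5g2 was higher by 0.58 and 0.45 (log2), and Atp5g1 differed by 0.30 and -0.10 (log2) with neither called. The dimmer probe set of Atp5l, with differences of 0.11 and -0.05 (log2), was not called, against 2.29 and 1.92 for the brighter one. Atpif1, the inhibitor that blocks reverse rotation of the enzyme and no member by symbol, was lower in adipocytes. It read 2900, 2748 and 2745 in subcutaneous and 2905, 2649 and 2391 in intraabdominal adipocytes, and 5582, 5697 and 5325 and then 7043, 9029 and 7887 in SVF of the same depots. That was 1.96-fold lower (adjusted p = 1.09e-05) and 2.98-fold lower (adjusted p = 6.92e-08), with no overlap in either depot.

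Complex IV was divided. Cox5b, a nuclear subunit that binds zinc, read 28231, 29554 and 34508 in subcutaneous and 24047, 23018 and 24044 in intraabdominal adipocytes, against 4603, 4396 and 4367 in subcutaneous and 4840, 6208 and 5565 in intraabdominal SVF. It was 6.83-fold (adjusted p = 9.20e-11) and 4.28-fold higher (adjusted p = 1.60e-09), and these were the smallest p-values of any member in either depot. Cox6a1, the widely expressed form of subunit 6a, was 5.42-fold and 3.72-fold higher, Cox7a2 was 3.77-fold and 3.80-fold higher, and Cox6c was higher by 1.68 and 1.27 (log2). Cox4i1, the widely expressed form of subunit 4, was 2.01-fold (adjusted p = 0.00883) and 2.16-fold higher (adjusted p = 0.00490) by its brighter probe set and was not called by its dimmer one, at 0.22 and -0.08 (log2). Cox8c was called higher in subcutaneous fat alone (1.56-fold, adjusted p = 0.0394), and the test of a difference between the depots in this excess did not call it (adjusted p = 0.623).

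Cox7a2l went against its complex. It read 4321, 4212 and 5156 in subcutaneous and 4528, 4471 and 4163 in intraabdominal adipocytes, and 7755, 8506 and 7976 in subcutaneous and 8107, 9257 and 8486 in intraabdominal SVF. Every adipocyte array lay below every SVF array, at 1.77-fold lower (adjusted p = 2.70e-05) and 1.95-fold lower (adjusted p = 5.35e-06). With the actin ratio as a covariate neither was called (adjusted p = 0.728 and 0.0983), and Ndufa1 was the 1 member called lower in each depot. Cox6a2, the muscle and heart form of subunit 6a, read 812, 101 and 62.1 in subcutaneous adipocytes, where 1 array stood far from the others, and 110, 106 and 127 in intraabdominal adipocytes. In SVF it read 536, 411 and 657 (subcutaneous) and 464, 714 and 565 (intraabdominal). It was 3.97-fold lower in intraabdominal adipocytes (adjusted p = 0.0101). In subcutaneous fat the difference of -1.30 (log2) was not called, and without subcutaneous adipocyte array 1 it was -2.24 and was called (adjusted p = 8.44e-05). Of the somatic and testis forms of subunit 6b, Cox6b1 differed by 0.08 and -0.19 (log2) and Cox6b2 by -0.01 and -0.10, and neither was called. A dimmer Cox6b2 probe set was 4.76-fold lower in intraabdominal adipocytes (adjusted p = 0.000332).

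**Figure D3:**
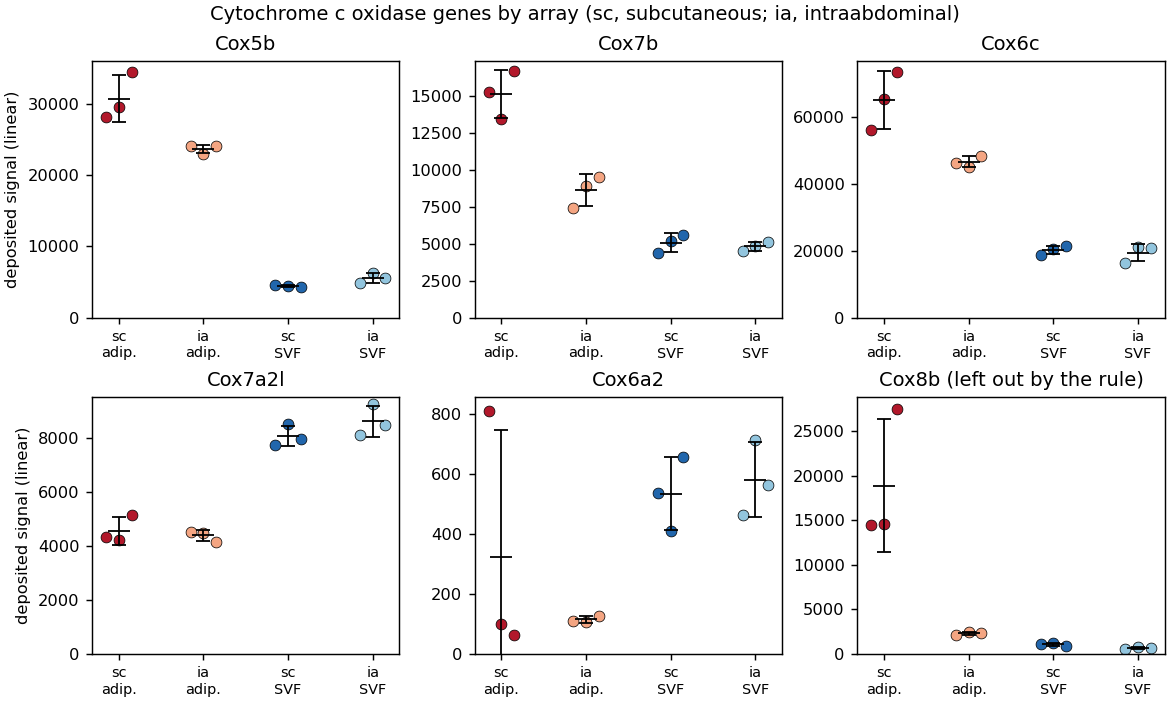
Deposited linear signal of 5 complex IV genes and of Cox8b, which the symbol rule leaves out, in each of the 12 arrays, with the mean and SD of the 3 arrays of each group (the SD bar of Cox6a2 runs below 0). Cox5b, Cox7b and Cox6c are highest in subcutaneous adipocytes, and Cox7a2l is lower in both adipocyte groups. Cox8b is highest in subcutaneous adipocytes, with array 3 at 27488. In intraabdominal fat Cox8b is also higher in adipocytes than in SVF (3.32-fold, adjusted p = 9.24e-06).

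Members that were called higher in neither depot were 13 of the 68: Ndufa1, Ndufa10 and Ndufc2 of complex I, Cox6a2, Cox6b1, Cox6b2 and Cox7a2l of complex IV, Atp5g1, Atp5j2 and Atp5pb of complex V, and the assembly factors Ndufaf1, Ndufaf4 and Sdhaf2. Apart from Cox7a2l (mean signal 6411) their mean signals lay between 207 and 1358. Another 4 members, Ndufa12, Ndufs4, Cox5a and Cox8a, lay below the limit on low signal and were not tested. Their group means ran from 48.1 to 266, and Cox5a for example averaged 167 ± 155 and 184 ± 29.3 in adipocytes and 163 ± 48.5 and 58.2 ± 26.9 in SVF (SD, n = 3, subcutaneous first). Of 12 dimmer probe sets of members that could be tested, 8 were called in subcutaneous and 6 in intraabdominal fat, and none was called opposite to a called brighter one. For 10 of the 12 the brighter probe set was called in each depot. The dimmer one had the same call in 8 of these in subcutaneous and 5 in intraabdominal fat. Of the 12, 1 and 2 had the opposite sign.

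The second question was whether the 2 depots differed. In adipocytes they differed little by this measure: 2 of 68 members were higher in subcutaneous cells and 0 lower, against 3.97% higher and 4.16% lower of all probe sets tested. At an unadjusted limma p under 0.05 there were 13 members in either direction, against 24.6% of all probe sets. The median difference was 0.22 (log2), 57 of 68 members were above 0, and the median of all probe sets tested was 0.07, with 56.2% above 0. When each array was instead centred on its median, the members' median became -0.00 with that of all probe sets at -0.15. With quantile normalization the medians were 0.25 and -0.03. The sign of the members' own median thus hung on the scaling, while it stayed above that of all probe sets with each of the scalings. The actin ratio moved with this comparison too, at 2.35 to 3.10 in subcutaneous and 1.71 to 2.24 in intraabdominal adipocytes. With it as a covariate the members' median was 0.38, 0 members were called, and of all probe sets 0.610% were called higher. Groups did not overlap, with subcutaneous above, in 18 members (13.6% of all probe sets tested) and in the opposite direction in 0 (10.7%). The 95% interval of the difference lay within 1 log2 unit of 0 in 56 of the 68.

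The 2 called genes were both of complex IV, and the dimmer probe set of Cyc1, of complex III, was also called higher (1.95-fold, adjusted p = 0.0138). With the mean over probe sets Cyc1 was called too (log2 0.60, adjusted p = 0.0177). Cox7b, a small subunit near the dimer face, read 15302, 13478 and 16687 in subcutaneous and 7437, 8919 and 9552 in intraabdominal adipocytes, and the depots did not overlap. It was 1.75-fold higher (log2 0.81, SE 0.14, adjusted p = 0.00225) and was called in every alternative run except with the actin ratio as a covariate (log2 0.76, adjusted p = 0.137). Cox6c read 56042, 65535 and 73606 against 46113, 45195 and 48392, 1.39-fold higher (log2 0.47, SE 0.13, adjusted p = 0.0385). That call was lost without subcutaneous adipocyte array 2 or 3 or intraabdominal adipocyte array 1 or 2, and in 11 of 17 alternatives in all, with adjusted p up to 0.335. All 11 tested members of complex IV lay above 0, with a median of 0.42, as did all 8 of complex III, with a median of 0.29. The medians were 0.38 for complex II, 0.18 for complex I and 0.18 for complex V. The largest difference of all, 1.44 for the accessory subunit Ndufc2, was not called (adjusted p = 0.0800), and its arrays overlapped, at 894, 450 and 343 against 55.5, 187 and 367. With arrays centred on the median Cox7b alone was called (1.98% of all probe sets were called higher). With quantile normalization 6 members were called higher (2.96% of all).

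**Figure D4:**
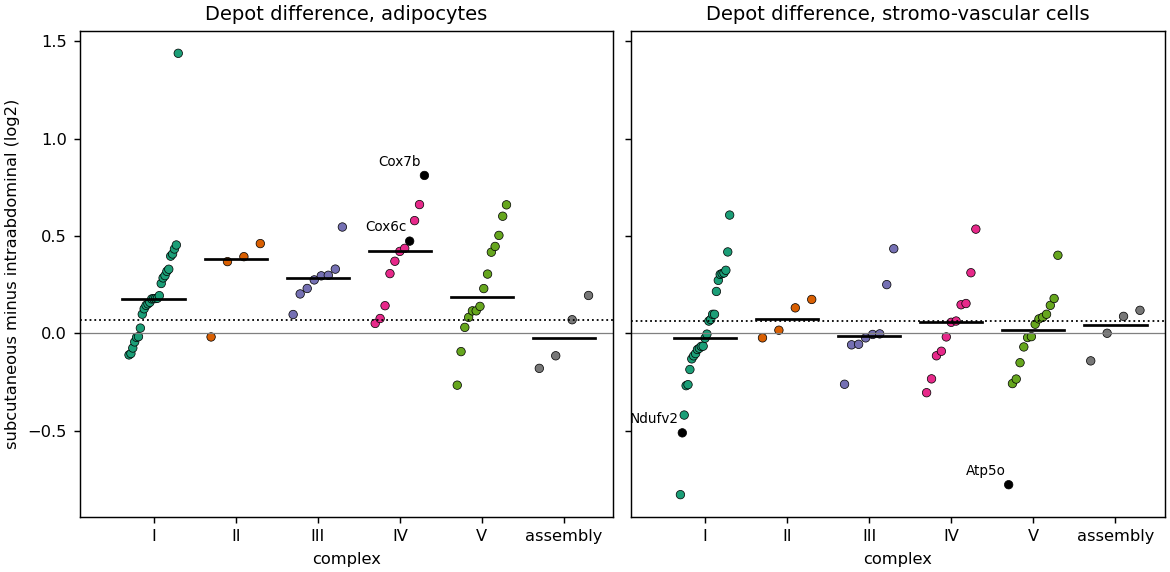
Log2 difference between subcutaneous and intraabdominal cells for each member tested, by complex, in adipocytes (left) and SVF (right). Bars are the medians of the complexes, the dotted line is the median of all probe sets tested, and black points with names are the members called: Cox7b and Cox6c higher in adipocytes, Ndufv2 and Atp5o lower in SVF.

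Array 3 of the subcutaneous adipocytes stood apart in these genes. It was the highest of its group in 44 of 68 members (64.7%), against 28.7% of all probe sets tested. Its median subunit deviation was 1.01 (log2), where arrays 1 and 2 gave 0.80 and 0.69 and the intraabdominal adipocytes 0.66, 0.63 and 0.64. Without it the members' median depot difference was 0.11 in place of 0.22, beside 0.10 for all probe sets. The array was picked for its high level in these genes, so this drop was built into the choice. The calls were then Cox7b and Uqcrc2 higher (0.74 and 0.59 in log2) and Atp5c1 lower (-0.40). Of all probe sets 4.85% were then called higher and 4.88% lower. Array 2 was the lowest of its group in 37 members (54.4%), against 28.8% of all. Without array 2 the members' median was 0.30, beside 0.06 for all probe sets. Without array 1 it was 0.25, beside 0.07. The actin ratio of array 3 was the lowest of its group, at 2.35 against 3.09 and 3.10. In SVF, intraabdominal array 1 was the lowest of its group in 46 of 68 members (67.6%), against 34.5% of all.

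Brown fat markers moved with the depot in adipocytes. The 9 on the array summed to 39479, 34763 and 52141 in subcutaneous and 4127, 4729 and 5084 in intraabdominal adipocytes, and to 1445 to 2456 in SVF. None was at 0 on any array. Of the 5 tested, 4 (Cidea, Cox8b, Ucp1 and Cox7a1) were higher in subcutaneous adipocytes. The subunits left out by symbol were among them. Cox8b read 14495, 14601 and 27488 against 2124, 2422 and 2282 (7.80-fold, adjusted p = 1.03e-06), and its dimmer probe set was 3.42-fold higher (adjusted p = 0.00238). Cox7a1 read 1180, 1555 and 3388 against 330, 195 and 216 (6.69-fold, adjusted p = 0.00197). Array 3 was again the highest in both genes, but not in every marker of the list. Ucp1 read 1518, 1270.7 and 1189.3 in subcutaneous adipocytes, with array 3 the lowest. Ppara read 963.9, 2098.5 and 1568.8, with array 2 the highest. The same comparison gave Cox7a2, the widely expressed counterpart of Cox7a1, a difference of 0.14 (adjusted p = 0.726). The part of brown fat cells in the depot difference of the 72 genes was not tested.

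In SVF the members showed no shift between depots. Of 68, 0 were higher and 2 lower in subcutaneous cells, against 6.49% higher and 6.45% lower of all probe sets tested, and 8 had an unadjusted limma p under 0.05, against 24.8% of all. The median was -0.00 (log2), with 33 above and 35 below 0, beside 0.06 for all probe sets. Groups did not overlap in 3 members with subcutaneous above (20.5% of all) and in 9 with subcutaneous below (16.8%), and the 95% interval lay within 1 log2 unit of 0 in 60. Atp5o, a subunit of the peripheral stalk, read 4026, 4375 and 4399 in subcutaneous and 5792, 9038 and 7525 in intraabdominal SVF, 1.71-fold lower (adjusted p = 0.0242). Ndufv2 read 4426, 4711 and 4616 against 6359, 6403 and 6884, 1.42-fold lower (adjusted p = 0.0269). In neither gene did the groups overlap. The Atp5o call was lost without any 1 of 5 of the 6 SVF arrays (all but intraabdominal array 1), and the Ndufv2 call without any 1 of the 6. A dimmer Ndufv2 probe set gave -0.09 (adjusted p = 0.845). Intraabdominal SVF also held more signal of smooth muscle and pericyte markers (123772 to 150203 against 32539 to 34698), of macrophage markers (43998 to 49940 against 26534 to 28324) and of mesothelial markers (6879 to 7064 against 1087 to 1413). Of 12 macrophage markers tested 6 were called lower and 1 higher in subcutaneous SVF. Preadipocyte and fibroblast markers summed higher in subcutaneous SVF (437445 to 477317 against 333045 to 388504). Endothelial markers overlapped in sum, with 5 of 10 called higher in subcutaneous SVF and 0 lower. The part of these cell types in the differences between the depots was not tested.

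The last comparison set the depot difference in adipocytes against that in SVF. It was more positive in adipocytes in 53 of 68 members (52.0% of all probe sets tested), with a median of 0.29 (log2) beside 0.03 for all. Called were 3 higher and 0 lower, against 3.90% and 4.53% of all probe sets tested, and 11 members had an unadjusted limma p under 0.05, against 20.8% of all. They were Cox5b (0.67, SE 0.17, adjusted p = 0.0200), Cox7b (0.75, SE 0.19, adjusted p = 0.0245) and Ndufv2 (0.69, SE 0.20, adjusted p = 0.0476). Cox7b reached this through adipocytes, with 0.81 there and 0.06 in SVF. Ndufv2 reached it through SVF, with 0.18 in adipocytes and -0.51 in SVF. The dimmer Ndufv2 probe set gave 0.41 and was not called (adjusted p = 0.455). Cox5b had 0.37 in adipocytes and -0.30 in SVF, where neither was called alone (adjusted p = 0.0679 and 0.115). None of the 3 was called with arrays centred on the median, or without intraabdominal SVF array 2. Over 22 alternatives the Ndufv2 call was lost in 14, among them without any 1 of 11 of the 12 arrays, the Cox7b call in 6 and the Cox5b call in 5.

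**Figure D5:**
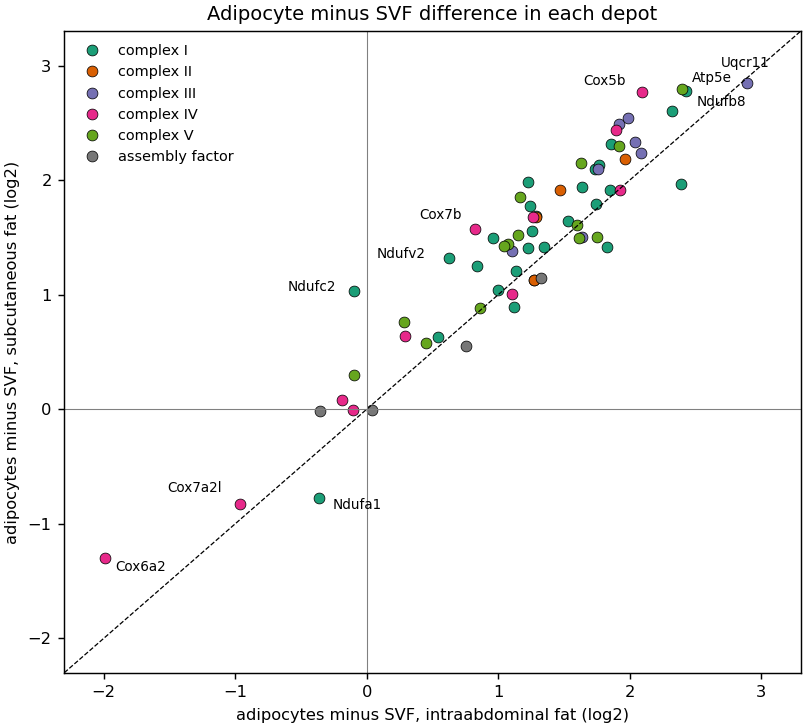
Each point is a member tested, with its log2 difference between adipocytes and SVF in intraabdominal fat (horizontal) and subcutaneous fat (vertical), coloured by complex; the dashed line marks equal differences. Of the 68 points 53 lie above the line, and Cox7a2l, Cox6a2, Ndufa1, Cox6b2 and Sdhaf2 lie below 0 on both axes, the last 2 at -0.01 and -0.02 on the vertical one.

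Genes that serve the chain were taken from lists chosen by function, and they are read against the share of all probe sets tested that was called higher (23.5% in subcutaneous and 22.4% in intraabdominal fat) or lower (29.4% and 29.0%). Of 13 electron carriers and feeders 10 were higher in subcutaneous and 9 in intraabdominal adipocytes than in SVF, with 1 lower in each and medians of 1.60 and 1.48. Cycs, cytochrome c itself, read 2894, 3019 and 3363 in subcutaneous and 2202, 2018 and 3019 in intraabdominal adipocytes, against 601 to 754 on the 6 SVF arrays, which was 4.56-fold higher in subcutaneous fat (adjusted p = 6.49e-08). Etfb, which carries electrons from fatty acid oxidation, was 11.8-fold and 4.16-fold higher. Its means were 21053 and 13939 in adipocytes and 1700 and 3345 in SVF (subcutaneous first), so both fractions entered the gap between these folds. Gpd2, the mitochondrial glycerol phosphate dehydrogenase, was 6.19-fold and 5.10-fold higher. Coq9, needed for ubiquinone synthesis, was 5.75-fold and 5.15-fold higher. A list of carriers of ATP, phosphate, protons and metabolites, with related genes, had 12 tested. In adipocytes 8 and 6 were higher and 1 and 2 lower, with medians of 0.70 and 0.59. Slc25a4 averaged 17996 and 20561 in adipocytes against 13178 and 16971 in SVF (subcutaneous first). Vdac2 averaged 2195 in intraabdominal adipocytes against 5298 in intraabdominal SVF. Slc25a1, the citrate carrier, was 11.6-fold and 8.65-fold higher, and the uncoupling protein Ucp3 was 7.19-fold and 4.42-fold higher. Ucp1, the uncoupling protein of brown fat, was 7.98-fold higher in subcutaneous fat (adjusted p = 8.03e-06), and its difference of 0.38 (log2) in intraabdominal fat was not called.

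Of 15 assembly factors tested, Sdhaf1 and Sdhaf2 among them, 10 and 11 were higher and 0 and 2 lower, with medians of 0.81 and 0.78. Cox17, which delivers copper to complex IV, was 1.93-fold and 2.01-fold higher. Foxred1, which helps to build complex I, was 2.02-fold and 2.39-fold higher. Hccs, which attaches haem to cytochrome c, was 2.14-fold lower in intraabdominal adipocytes. Mitochondrial ribosomal proteins, which serve translation of the subunits encoded in mitochondria, had 41 of 59 higher in subcutaneous and 34 of 59 in intraabdominal fat, with 0 and 1 lower and medians of 0.78 and 0.72. Mrpl12 led in both (5.03-fold and 6.94-fold). Genes of import and folding had 11 and 13 of 23 higher and 1 lower in each, with medians of 0.61 and 0.55. Tomm7, of the outer membrane translocase, was 2.24-fold and 2.61-fold higher, and Tomm34 was 2.88-fold lower in subcutaneous fat. All of these medians stood below those of complexes I, II, III and V.

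Regulators of mitochondrial genes lay nearer to these shares of all probe sets, with 5 higher and 6 lower of 15 in subcutaneous and 6 higher and 5 lower in intraabdominal fat. Esrra, the orphan receptor of the ERR letters, read 4031, 3640 and 3863 in subcutaneous and 3888, 4350 and 4084 in intraabdominal adipocytes, against 827 to 1387 on the SVF arrays. It was 2.97-fold (adjusted p = 1.13e-06) and 3.96-fold higher (adjusted p = 9.06e-08). Gabpa, of the GABPA letters, was 2.70-fold lower (adjusted p = 0.000168) and 3.78-fold lower (adjusted p = 1.02e-05), and Yy1 was 2.23-fold and 1.94-fold lower. Nrip1, a corepressor of oxidative genes, was 2.57-fold and 5.80-fold higher. Between the depots it was 1.48-fold lower in subcutaneous adipocytes (adjusted p = 0.0385), the 1 call among 15 regulators (4.16% of all probe sets were lower). In SVF 3 regulators were higher in subcutaneous cells and 0 lower. Electron carriers and feeders had 1 higher and 1 lower of 13 in adipocytes, and 1 and 3 in SVF. The list of carriers had 2 higher and 1 lower of 12 in adipocytes, and 0 and 2 in SVF. Ppargc1a, the coactivator of mitochondrial biogenesis, lay below the limit on low signal, at 131 ± 63.1 and 138 ± 87.6 in adipocytes and 81.6 ± 11.7 and 81.2 ± 50.0 in SVF (SD, n = 3).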

How the data were processed

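The values are an intensity per probe set and array on a linear scale, deposited by the authors for 12 Affymetrix arrays of 12488 probe sets. Per the submitters' processing notes MAS5 made them, with a version not given in the sources used here and no detection calls at hand. They were used as deposited, already scaled to a common mean. The 66 control probe sets were left out. Symbols came from the platform annotation (10833 probe sets with 1 symbol, 396 with several and 1193 with none, which were not named), and all 72 members matched RefSeq by Entrez number. Of probe sets with several symbols 10 held a symbol like those of members and fell outside the rule.

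Signals were tested as log2(signal + 40.09), the pseudocount being the 10th percentile of all values, and folds were taken after adding it, so that changes of dim genes come out too small. Probe sets whose mean log2 signal fell in the lowest 30% were not tested, and 8695 were. A limma 3.58.1 model in R 4.3.3 with 4 group means over all 12 arrays (8 residual degrees of freedom, eBayes with a trend) gave 5 contrasts, with Benjamini-Hochberg adjustment over all 8695. The code was tested on simulated data. The median SE of a log2 difference was 0.17 for members and 0.24 for all probe sets, and the number of arrays limits the precision. No 2 arrays were identical, and arrays of 1 group correlated at 0.924 or more.

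The members and gene lists were chosen with earlier results of these data known, and the NRF1 letters were shortened to 8 after a longer form had been searched. Genes were named by rule: every called member where at most 10 were called in a direction, otherwise the 3 with the smallest p per complex, every member under the filter, the subunit lists (complex I core, II, III, IV isoforms, and V), up to 4 genes of each other list, and Cox7a1 and Cox8b. Ndufb8, Uqcr11 and Cox7a2l are also named for their place in the order of values. The genes named in lists of members called in neither depot were named after their values were seen. So were Cox7a2, Ndufa10, Ndufb6, Ndufc2, Ppara, Slc25a4, Ucp1, Uqcr10 and Vdac2. Alternatives were other pseudocounts and filters, median centring, quantile normalization, only the groups compared, a replicate block, array weights, the actin ratio as a covariate, the mean over the probe sets of a gene, and leaving out each array. Correlation of deviations between arrays of the same replicate number ran from -0.086 to 0.11 over 18 pairs, so the numbers were not taken to pair samples.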

Additional observations from a re-analysis of the deposited data

Results flagged for a closer look

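The depot difference itself differed between the cell fractions, by the interaction term of the limma model, in 3 members. That was 4.41% of the 68 tested, near the share of all probe sets tested (3.90% called higher and 4.53% lower). For Cox7b the depot difference in adipocytes exceeded that in stromo-vascular cells by 0.75 (log2, adjusted p = 0.0245). For Ndufv2 the excess was 0.69 (adjusted p = 0.0476), and for Cox5b it was 0.67 (adjusted p = 0.0200). A dimmer Ndufv2 probe set gave 0.41 and was not called (adjusted p = 0.455). In 22 alternatives the adjusted p of Cox7b lay between 0.0167 and 0.145, that of Ndufv2 between 0.00988 and 0.234 and that of Cox5b between 0.00631 and 0.176.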

How the results depend on the processing

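The excess of members in adipocytes over SVF kept its direction and stayed within 1.5 times of its count in every alternative run. As each array was left out, 54 to 56 members were called higher in subcutaneous fat and 53 to 56 in intraabdominal fat. Of all probe sets 19.8% to 23.1% and 20.2% to 20.7% were then called higher. With the actin covariate the counts were 43 and 49 (5.76% and 10.8% of all). With the mean over probe sets they were 53 and 50 (24.2% and 23% of all). Members called lower as each array was left out numbered 1 to 2 and 2 to 2. Of all probe sets 25.8% to 28.5% and 26% to 28.2% were then called lower. The lower count in subcutaneous fat was 2 with array weights (29.1% of all). The lower count in intraabdominal fat was 1 with the lowest 50% left out (33.4%) and 1 with the actin covariate (14.2%). With the mean over probe sets it was 3 (29.8%). The depot counts are small and moved more. Members higher in subcutaneous adipocytes (2) became 1 without the filter, 1 with median centring, 1 with only the groups compared, 1 with array weights, 6 with quantile normalization and 0 with the actin covariate. Of all probe sets 2.67%, 1.98%, 1.41%, 2.48%, 2.96% and 0.610% were called higher in these runs, in that order. Leaving out 1 array gave 1 to 4 higher and 0 to 1 lower, against 1.96% to 6.39% and 2.27% to 4.88% of all probe sets. The members' median depot difference in adipocytes turned to -0.0015 under median centring, beside -0.1472 for all probe sets. In SVF the count higher (0) became 1 with the lowest 50% left out, quantile normalization, only the groups compared, array weights and the actin covariate, each time Ndufab1. In these runs 6.36% to 11.6% of all probe sets were called higher. The count lower (2) became 6 with array weights (10.9% of all probe sets) and 1 with the mean over probe sets (6.52%). As arrays were left out it was 0 to 2 (4.38% to 5.11%), and the count higher stayed at 0 to 0 (4.43% to 5.5%). The interaction count (3 higher) fell to 0 with median centring (2.63% of all probe sets). It ran from 0 to 4 as arrays were left out (2.83% to 4.61%), with 0 to 0 lower (3.3% to 4.93%). It has no value with only the groups compared, because it uses all 4. With the replicate block, which rests on shared numbers alone, 1 member (Ndufab1) was called higher in SVF in place of 0. Of all probe sets 6.05% were called higher in that run. The cause of these changes was not tested.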
